A study of Sus scrofa with 19 samples.

Results

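Cytokines, chemokines and their receptors are described here in the endometrium, which lines the uterus, of gilts, which are young female pigs, all of crossbred stock. Members were the genes named as interleukins, CC or CXC chemokines, colony-stimulating factors or LIF, the receptors named after them, and TNF, leaving out IL1A, IL1B, IL1RN, IL1R1 and IL18. Of 67 such genes with a probe, IL4, IL9 and IL21 were well above background on 0 of the 19 arrays. The other 64 were well above background on at least 4 arrays and form the set, out of 3010 genes with a symbol and a tested probe. Where a gene had several probes, the one with the highest mean signal was used. The set holds 14 interleukins, 4 genes of the gp130 family, 11 interleukin receptors, 15 CC chemokines, 8 CXC chemokines, 9 chemokine receptors, 2 colony-stimulating factors and TNF.

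The animals were 8 months old, and both uterine horns of each had been cannulated on days 8 to 9 of the cycle. In the 6 treated gilts, a randomly picked horn received 200 µg of prostaglandin E2 (PGE2) and 33.3 µg of estradiol (E2) at each infusion and is called the hormone horn. The other horn of these gilts was infused with vehicle, which is saline with 1% ethanol, and is called the placebo horn. In the 4 control gilts both horns were infused with vehicle (8 control horns, 4 marked L and 4 marked P). Infusions were repeated every 4 h over 24 h on days 11 to 12 after oestrus began. All 6 hormone horns and 5 placebo horns were analysed; the placebo horn of gilt 40 was not analysed here. All 5 placebo horns are marked L and 5 of the 6 hormone horns P, and the meaning of both letters is not stated in the labels. In the 5 gilts with both horns every placebo horn is an L horn and every hormone horn a P horn, so within gilts hormone and mark cannot be told apart. Genotype, beyond the crossbreeding and a shared background, is not given, and the hormones were given together, so PGE2 and E2 cannot be told apart.

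Cytokines are secreted proteins through which leukocytes, epithelium and stroma signal to each other, and most act on receptors that activate JAK kinases and STAT transcription factors. Chemokines are small cytokines that bind G protein-coupled receptors and draw leukocytes into tissue. CC chemokines chiefly attract monocytes, lymphocytes and eosinophils, CXC chemokines such as CXCL8 attract neutrophils, and CXCL9, CXCL10 and CXCL11 are induced by interferons. In the pig uterus, estradiol and PGE2 are among the signals exchanged between conceptus and endometrium around the time of maternal recognition of pregnancy, and LIF and IL6 are long studied there.

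RNA was labelled with Cy3 and hybridised to one-colour arrays. A level below is the log2 signal of a probe minus the log2 of the 75th percentile of its array, so that 0 marks the brightness of that percentile, and levels of different probes are not set against each other. Differences are log2 differences with their standard error (SE). Between 79.1% and 88.4% of spots were well above background, and epithelial and stromal markers (10 and 6 measured genes) were well above background in all groups. Higher in hormone horns than in control gilts (adjusted p under 0.05, limma) were 4 of 10 epithelial, 2 of 6 stromal and 4 of 6 endothelial markers, and in placebo horns 3, 0 and 0, while 0 were lower. Of 3 measured smooth muscle markers (6 listed) 0 were called higher or lower. Their summed level was 29.5 to 210 in control horns, 30.4 to 59.9 in placebo horns and 60.8 to 125 in hormone horns. In every gilt with both horns this sum was higher in the hormone horn. The highest sum, 210, was in the P horn of control gilt 9. Of all RefSeq probes 14.9% were higher in hormone horns, and the part of tissue makeup in the results below was not tested. Among members, 52 were well above background on all 19 arrays. The other 12 were so on 4 to 18 arrays: IL7, IL12A, IL12B, IL13, IL17A, IL23A, IL2RG, IL12RB2, IL23R, CXCL11, CCR3 and CSF2. Because such a gene can enter the set through the group where it is high, counts below are also given for the 52.

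Both horns of gilt 47 stood apart, and values without this gilt are given beside many of the results below. In its hormone horn 39 of 64 members lay more than 1 log2 unit above the mean of the control gilts, against 10.3% of all tested probes. The placebo horn of gilt 47 had 42 (11.3% of probes). In gilt 41 the hormone horn had 21 (4.72%) and the placebo horn 26 (4.73%). Hormone horns of gilts 36, 38, 40 and 44 had 9 (11.4%), 5 (4.65%), 6 of 63 (6.04%) and 4 (6.63%), and the placebo horns of gilts 36, 38 and 44 had 4 (3.3%), 8 (4.98%) and 6 (2.94%). All members come from RefSeq probes. The share of RefSeq probes was 18.2% and 19.9% in hormone and placebo horn of gilt 47, and 8.77% and 8.0% in gilt 41. It was 14.9%, 7.29%, 9.61% and 13.0% in hormone horns of gilts 36, 38, 40 and 44. In placebo horns of gilts 36, 38 and 44 it was 5.89%, 8.33% and 5.38%. The members' share did not exceed it in hormone horns of gilts 36, 40 and 44 (14.1%, 9.52% and 6.25%). Control horns were each set against the other 3 control gilts. The L and P horns had 1 and 4 in gilt 9 (1.68% and 3.7% of probes), 0 and 0 in gilt 14 (1.4% and 1.32%), 4 and 4 in gilt 28 (1.67% and 1.52%) and 5 and 7 in gilt 46 (2.34% and 2.17%). Of RefSeq probes 1.04% to 3.94% lay so high in control horns. More than 1 log2 unit below lay 12 of 63 members in the hormone horn of gilt 40 (7.71% of probes). In the P horn of control gilt 9 this held for 12 (3.55%), and in the L horn of control gilt 14 for 8 (2.67%). The other horns had 0 to 5 below.

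**Figure D1:**
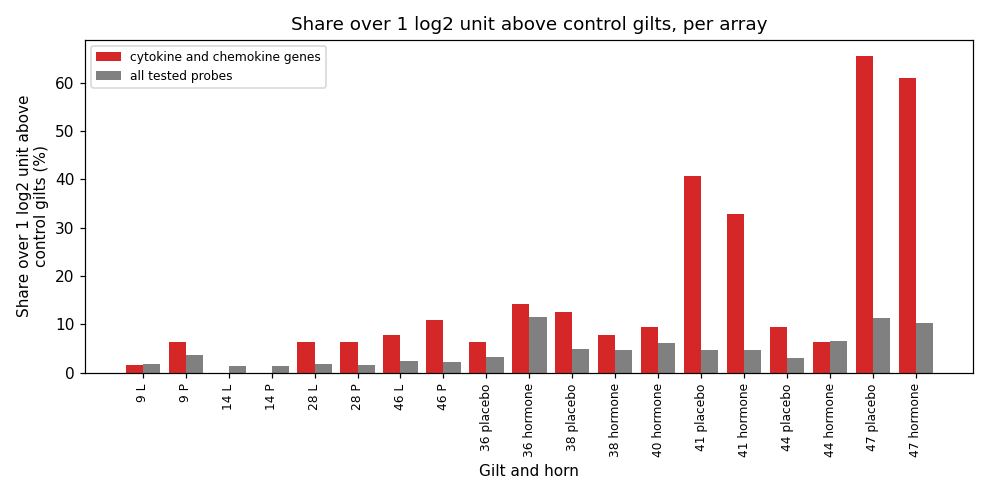
Percent of the cytokine and chemokine genes (red) and of all tested probes (grey) that lay more than 1 log2 unit above control gilts, for each of 19 arrays (x axis, gilt and horn). Each control horn is set against the other 3 control gilts. The share of RefSeq probes, up to 19.9%, is not drawn. Both horns of gilts 41 and 47 exceed all other arrays in the red bars, with 21 to 42 genes.

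Leukocyte markers were highest in gilt 47. The summed level of 14 measured macrophage and dendritic cell markers (of 21 listed) was 23.7 to 41 in control horns, 39.9 to 313 in placebo horns and 34.4 to 275 in hormone horns. For 11 of 19 neutrophil markers it was 3.86 to 5.02, 4.56 to 87.8 and 6.48 to 74.3. For 14 of 22 T and natural killer cell markers it was 7.37 to 10, 6.93 to 20.5 and 5.59 to 21.8, and for 3 of 10 B cell markers 0.0979 to 0.14, 0.0977 to 0.895 and 0.0883 to 0.756. In these 4 lists gilt 47 gave the highest placebo and hormone values. In gilt 41 the macrophage (75 and 64.7 in placebo and hormone horn) and neutrophil sums (13.5 and 49.5) lay above the control range. The T and natural killer cell (7.94 and 7.54) and B cell sums (0.124 and 0.131) lay within it. A sum follows its brightest probes, and GZMB, brightest of the T and natural killer list (2.44 in control gilts), was lower in hormone horns (-0.94 ± 0.21, adjusted p = 0.0104, limma). Taken gene by gene, that list differed from control gilts by a median of 0.73 in the placebo and 0.74 in the hormone horn of gilt 41. Control horns ranged from -0.52 to 0.25 by that measure. Other gilts also exceeded control sums. Macrophage sums were 44.8, 47.1 and 66.3 in hormone horns of gilts 36, 38 and 44. In placebo horns of gilts 38 and 44 they were 57.5 and 48.9. Within the control range lay the placebo horn of gilt 36 (39.9) and the hormone horn of gilt 40 (34.4). Neutrophil sums were 6.95, 66.4, 26.3 and 6.48 in hormone horns of gilts 36, 38, 40 and 44. Placebo horns of gilts 36 and 38 had 5.89 and 14.2, and that of gilt 44 had 4.56, within the control range. Every measured marker was above background in some horn of each group except 1 B cell marker in control horns. In tissue, more cells of a type and more RNA per cell cannot be told apart, and the part of leukocyte number in the results below was not tested.

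Hormone horns were compared with control gilts to ask what set hormone-treated endometrium apart from that of animals without any hormone infusion. IL13RA1, a chain of the receptor for IL4 and IL13, and IL15, a cytokine that sustains natural killer cells and memory T cells, rose. IL18R1, the ligand-binding chain of the IL18 receptor, fell. Thus 3 of 64 members passed (adjusted p under 0.05, limma), 2 higher and 1 lower, against 11.6% of all tested probes (6.72% higher and 4.93% lower) and 17.0% of probes with a RefSeq accession. That share was below the background. Of the 64, 53 had a positive difference, with a median of 0.58, while 51.1% of all probes were positive with a median of 0.01, and 67.3% of RefSeq probes with a median of 0.20. Among the 52 measured on all arrays, 42 were positive, with a median of 0.58. Without gilt 47 the median of the 64 was 0.22, with 49 positive.

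IL13RA1 had a level of -3.36 in the hormone horn of gilt 36, -2.77 in gilt 38, -2.80 in gilt 40, -2.45 in gilt 41, -2.85 in gilt 44 and -2.43 in gilt 47. Control horns ranged from -4.14 to -3.18 (median -3.87). Only the hormone horn of gilt 36 lay within the control range. IL13RA1 was 1.96-fold higher in hormone horns (difference 0.97 ± 0.24, adjusted p = 0.0164), with means of -2.78 ± 0.34 (SD, n = 6) and -3.75 ± 0.36 (SD, n = 4 gilts). The call was lost without control gilt 14 (adjusted p = 0.0729) and without control gilt 28 (adjusted p = 0.0712), and with normexp background correction (0.51, adjusted p = 0.0656). Within the 3 scan days the difference was 0.54, 1.41 and 0.68 (adjusted p = 0.493, 0.0236 and 0.571).

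IL18R1 stood at -3.73, -3.14, -3.61, -3.62, -3.36 and -3.97 in the hormone horns of gilts 36, 38, 40, 41, 44 and 47, and at -3.55 to -1.52 (median -2.11) in control horns. All 6 hormone horns lay below 7 of the 8 control horns, and the P horn of control gilt 9 lay among them. The difference was -1.28 ± 0.34 (0.413-fold, adjusted p = 0.0244). A second, dimmer probe of IL18R1 gave -1.85 ± 0.43 (adjusted p = 0.0117). Leaving out control gilt 28 or 46 ended the call of the brighter probe (adjusted p = 0.0941 and 0.0526), as did a fit on only the groups compared (adjusted p = 0.104), and a fit with slide as a term, which rests on gilts 9 and 36 (-0.68, adjusted p = 0.335). With normexp it passed at -0.76 (adjusted p = 0.0194). Within the 3 scan days the difference was -0.68, -1.50 and -1.47 (adjusted p = 0.719, 0.115 and 0.537).

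IL15 lay between -2.53 and -1.45 in hormone horns (median -2.28), with the highest value in gilt 47, and between -3.11 and -2.34 in control horns (median -2.87). Both horns of control gilt 46 (-2.34 and -2.46) overlapped the hormone horns. A second, dimmer probe of IL15 gave 0.62 ± 0.23 (adjusted p = 0.0834). The difference of the brighter probe, 0.60 ± 0.19 (1.51-fold), had an adjusted p of 0.05, just under the threshold before rounding, and passed in 3 of the 10 fits that each left out a gilt (adjusted p 0.0329 to 0.179). It was lost without control gilt 9, 14 or 28 and without treated gilt 36, 40, 41 or 44, and was 0.34 (adjusted p = 0.163) under scaling on RefSeq probes. Within the 3 scan days it was 0.82, 0.50 and 0.41 (adjusted p = 0.22, 0.117 and 0.77).

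**Figure D2:**
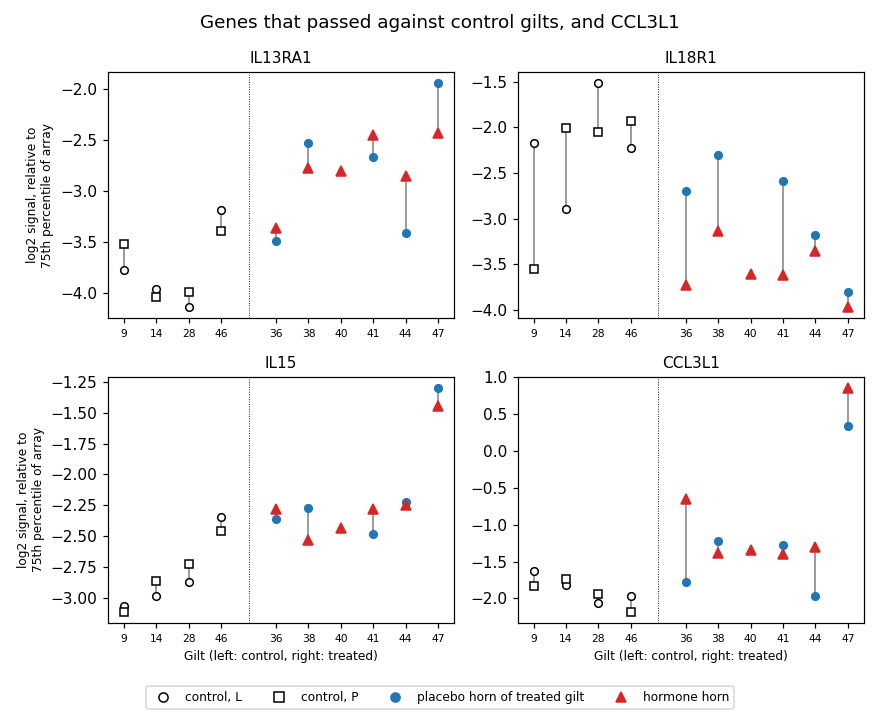
Level (log2 signal relative to the 75th percentile of the array) of IL13RA1, IL18R1, IL15 and CCL3L1 by gilt, with a line joining the horns of a gilt. IL13RA1 and IL15 are higher and IL18R1 is lower in most horns of treated gilts (right of the dotted line), and all 6 hormone horns of CCL3L1 lie above the 8 control horns.

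CCL3L1, a CC chemokine that attracts monocytes and T cells, was the member whose 6 hormone horns all lay above all 8 control horns (1 of 64, against 3.83% of probes), and 0 lay wholly below (3.07%). Hormone horns of gilts 36, 38, 40, 41, 44 and 47 stood at -0.66, -1.38, -1.35, -1.40, -1.31 and 0.85, and control horns at -2.18 to -1.63. The difference was 1.02 ± 0.35 with an adjusted p of 0.0638. It did not pass, and without gilt 47 it was 0.67 (adjusted p = 0.0370).

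Other interleukin receptors did not pass. IL4R, the shared receptor chain of IL4 and IL13, differed by 0.62 ± 0.29 (adjusted p = 0.177), with hormone horns at -3.34 to -1.85 and control horns at -3.79 to -3.10. IL13RA2, which binds IL13 without the usual signal, differed by -0.47 ± 0.26 (adjusted p = 0.253), and hormone horns at -2.30 to -0.91 overlapped control horns at -1.78 to -0.69. IL2RG, IL7R and IL12RB1, receptor chains of lymphocytes, differed by 0.88 ± 0.46, 1.01 ± 0.54 and 1.03 ± 0.47, and each was highest among hormone horns in gilt 47. Without that gilt these differences were 0.48, 0.57 and 0.64. IL2RA, IL10RB, IL12RB2 and IL23R differed by 0.18, 0.30, 0.01 and 0.32, and IL23R by -0.27 without gilt 47. The value of IL12RB2 was missing in the hormone horn of gilt 40, where the spot carried an outlier flag.

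Among the interleukins, IL10, which restrains inflammation, stood at 0.73 in the hormone horn of gilt 47 and between -3.06 and -2.19 in the other 5 hormone horns. Control horns had -3.18 to -2.42, so that gilt 47 alone lay above them by more than 2 log2 units, and the difference was 0.76 ± 0.51 (adjusted p = 0.359; 0.22 without gilt 47). IL1B2, whose sequence is close to that of IL1B and whose probe may not separate them, differed by 0.56 ± 0.33 (0.31 without gilt 47). IL16 and IL27 differed by 0.64 and 0.34, IL7 and IL12B by 1.12 and 0.67, and IL23A and IL13 by 0.35 and 0.13. Without gilt 47, IL16 and IL27 differed by 0.21 and 0.02, and IL12B and IL23A by 0.18 and 0.12. IL2, IL5, IL12A and IL29 had negative differences (-0.34, -0.35, -0.21 and -0.33), and 0 of these passed. IL17A, made by a class of helper T cells, was well above background on 4 arrays, 2 placebo and 2 hormone horns, and on 0 control arrays. It entered the set through these 4 arrays alone, so a level above controls follows from the rule and is not a separate result. Its placebo horns stood at -3.82 and -3.10 in gilts 41 and 47. The other 3, at -9.18, -9.29 and -9.26, were, like all control horns, not well above background. The bound for the placebo mean was 1.1-fold above controls and rests on gilts 41 and 47. It uses the dimmest signal passing as well above background on each control array. No bound above 1 could be given for hormone horns. The measured placebo difference of 1.5 became 0.58 without gilt 47.

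Within the gp130 family, whose receptors share the chain IL6ST, IL6 varied most. Its hormone horns stood at -2.55, -1.02, 0.11, -3.54, -3.17 and 0.31 in gilts 36, 38, 40, 41, 44 and 47, against -3.53 to -1.32 in control horns. Gilts 38, 40 and 47 lay above the control horns and gilt 41 marginally below them, and the difference was 1.03 ± 0.79 (adjusted p = 0.43; 0.64 without gilt 47). LIF, a cytokine needed for implantation in mice, had hormone horns at -3.60 to -2.78 and control horns at -3.55 to -2.70, with a difference of 0.02 ± 0.18 (adjusted p = 0.962). IL6ST differed by 0.34 ± 0.37 and IL6R, which binds IL6, by 0.40 ± 0.19 (adjusted p = 0.591 and 0.184). LIFR was not analysed here.

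The CC chemokines had 11 of 15 positive differences and a median of 0.61. CCL28, a chemokine of mucosal epithelium that attracts plasma cells and other cells with CCR10 or CCR3, had the largest difference of the set in size. Hormone horns of gilts 36, 38, 40, 41, 44 and 47 stood at 3.93, 0.90, -4.67, 3.84, 1.12 and -2.45, while control horns ranged from 1.11 to 3.70. Gilts 38, 40 and 47 lay below that range and gilts 36 and 41 above it, and the difference of -2.31 ± 1.22 did not pass (adjusted p = 0.234). It was -1.28 without gilt 40 and -1.73 without gilt 47. In gilt 40, CCL28 was at 0.00584 times the mean of control gilts.

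CCL2 and CCL8, which attract monocytes, were highest in gilts 41 and 47. CCL2 stood at 1.80 and 3.63 in their hormone horns, at -1.34 to 0.22 in the other 4 and at -0.67 to 0.89 in control horns (difference 0.84 ± 0.73, adjusted p = 0.489; 0.23 without gilt 47). CCL8 stood at -1.38 and 0.85 there, at -4.76 to -3.40 in the other 4 and at -4.57 to -3.61 in control horns (1.28 ± 0.72; 0.57 without gilt 47). Above the control range lay also CCL8 in the hormone horn of gilt 38 (-3.40) and the placebo horns of gilts 36 and 38 (-3.23 and -2.60), and CCL2 in the placebo horn of gilt 38 (1.05). CCL5, a T cell product, reached 4.74 in gilt 47, while its other hormone horns ranged from 0.84 to 1.73 and its control horns from 0.36 to 1.32 (0.87 ± 0.52, adjusted p = 0.295). Without gilt 47 the CCL5 difference was 0.28. CCL4, CCL19, CCL20 and CCL26 differed by 0.61, 0.36, 0.74 and 0.89, CCL11, CCL25 and CCL27 by 0.01, -0.01 and -0.30, and CCL24, CCL14 and CCL21 by -0.46, 0.27 and 0.84. Without gilt 47, CCL4 differed by 0.25 and CCL24 by -0.09.

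The chemokine receptors had 9 of 9 positive differences, with a median of 0.60 and 0 passing. That sign held for 6 of 9 when arrays were scaled on RefSeq probes alone. CCR1, carried by monocytes and neutrophils, stood at -1.51, -1.66, -2.35, 0.81, -1.03 and 1.86 in hormone horns of gilts 36, 38, 40, 41, 44 and 47 and at -3.09 to -1.43 in control horns. The difference was 1.43 ± 0.75 (adjusted p = 0.23; 0.93 without gilt 47). CXCR6, a receptor of memory T and natural killer cells, stood at 1.55 in gilt 47, at -2.45 to -1.32 in the other hormone horns and at -3.61 to -2.28 in control horns (1.30 ± 0.56, adjusted p = 0.14; 0.70 without gilt 47). CXCR4, which binds CXCL12, stood at -0.69 in gilt 47 and at -2.87 to -2.40 in the other hormone horns, against -3.38 to -2.50 in control horns (0.65 ± 0.32, adjusted p = 0.204; 0.33 without gilt 47). CCR2, CCR3, CCR7, CCR9 and CCR10 differed by 0.60, 0.14, 0.93, 0.01 and 0.09, and without gilt 47 CCR2, CCR3 and CCR7 by 0.37, -0.40 and 0.46.

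The CXC chemokines were the class with the widest spread between gilts. Their median difference from control gilts was 2.35 in the hormone horn of gilt 41 and 4.39 in that of gilt 47, but -0.70 to -0.05 in the hormone horns of the other 4 gilts. CXCL8 stood at -1.17 and 1.38 in gilts 41 and 47 and at -6.28 to -3.69 in the other 4, against -6.16 to -3.61 in control horns (1.52 ± 1.13, adjusted p = 0.409; 0.58 without gilt 47). These are 12.7-fold and 74.5-fold above the mean of control gilts. CXCL10 stood at 4.96 and 6.25 in the same gilts, at -0.44 to 0.77 in the others and at -0.25 to 2.03 in control horns (0.91 ± 1.01, adjusted p = 0.604; 0.04 without gilt 47).

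CXCL11, well above background on 9 arrays, stood at -2.70 and -0.74 in gilts 41 and 47, at -8.00 to -6.76 in the other hormone horns and at -8.33 to -6.00 in control horns (1.90 ± 1.03; 0.97 without gilt 47). CXCL9 differed by 0.98 ± 0.98 and CXCL2, a neutrophil attractant, by 0.68 ± 0.79, both highest in gilts 47 and 41 (0.07 and 0.11 without gilt 47). CXCL12, made by stroma, was at 0.69 in gilt 47 and at -1.92 to -1.40 in the other hormone horns, against -1.73 to -0.43 in control horns. Its difference of 0.11 ± 0.43 (adjusted p = 0.898) became -0.29 without gilt 47. CXCL14 and CXCL16 differed by 0.20 and -0.30.

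CSF2 and CSF3, growth factors of granulocytes and macrophages, differed by 1.08 ± 0.75 (adjusted p = 0.378; 0.62 without gilt 47) and 0.65 ± 0.41. CSF2 was well above background on 7 arrays and stood at -6.12, -6.02, -8.57, -5.37, -7.18 and -3.91 in hormone horns of gilts 36, 38, 40, 41, 44 and 47 and at -8.28 to -6.28 in control horns. TNF, a trigger of inflammation, hardly varied at its brighter probe (mean level 1.13). Hormone horns stood at 0.95 to 1.86, the highest in gilt 40, and control horns at 0.89 to 1.35. The difference was 0.08 ± 0.15 (adjusted p = 0.775), and it turned to -0.18 under scaling on RefSeq probes. A second, far dimmer probe of TNF (mean level -5.87, well above background on 18 arrays) gave 0.21 ± 0.31 in hormone horns (adjusted p = 0.705). In placebo horns it gave 0.43 ± 0.32 (adjusted p = 0.443). Which of the probes better reflects TNF was not tested. CSF1, CSF1R and CSF3R were not analysed here.

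**Figure D3:**
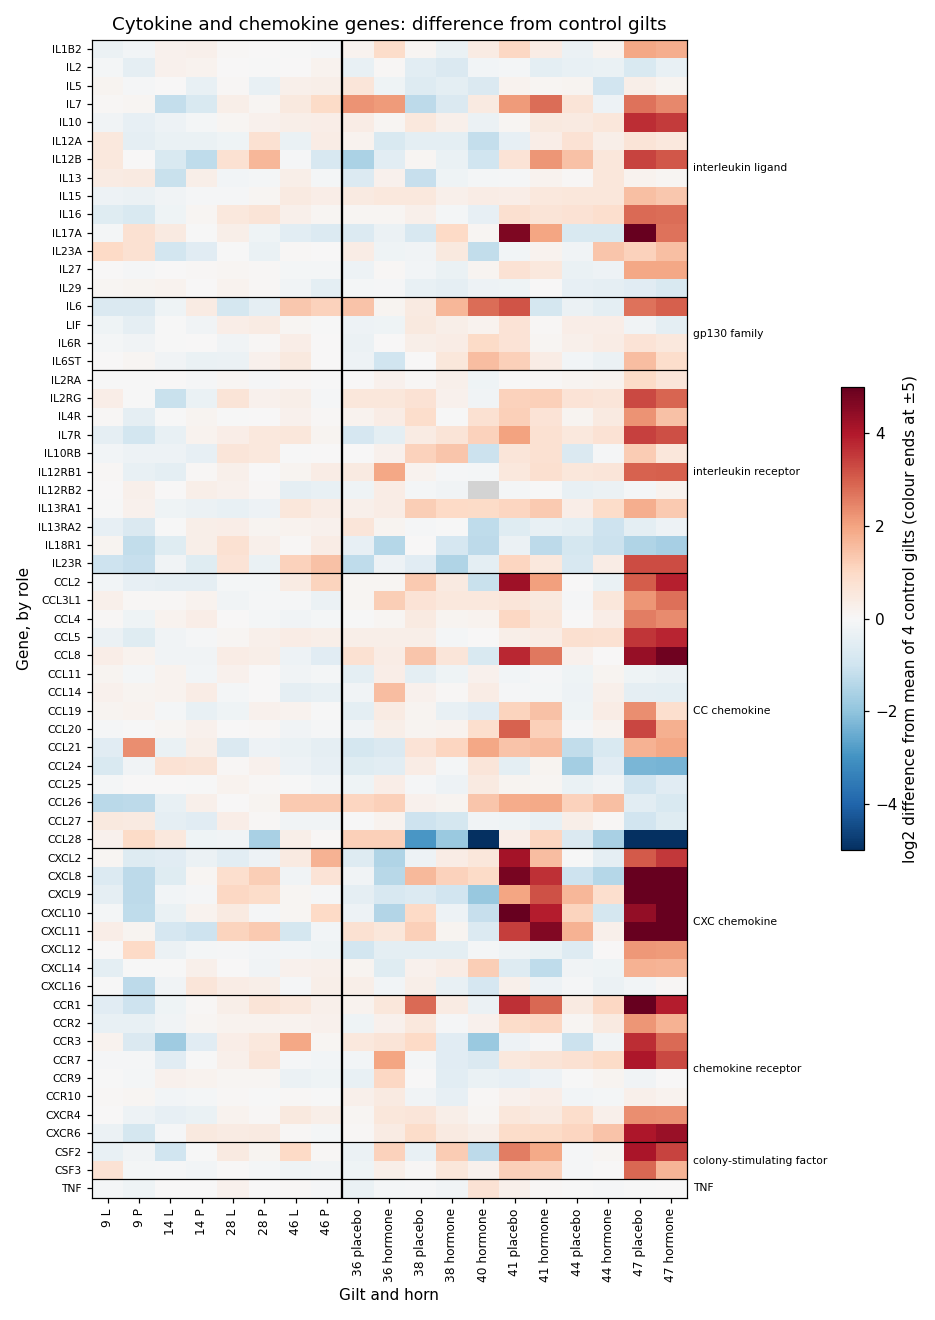
Difference in log2 level from the mean of 4 control gilts for each of 63 genes of the set (rows, grouped by role) in 19 horns (columns, controls left of the thick line). Red is higher and blue lower, colours end at 5 log2 units, and grey marks the missing value of IL12RB2. Red cells are densest in both horns of gilts 41 and 47 among chemokines, and CCL28 is blue in both horns of gilts 38 and 47 and in gilt 40.

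Placebo horns of the treated gilts were compared with control gilts to see whether horns without hormone differed from horns of untreated animals. IL13RA1 rose here too, and was the 1 member of 64 to pass (adjusted p = 0.0404, limma), against 4.42% of all tested probes (2.46% higher and 1.96% lower) and 6.52% of RefSeq probes (5.84% higher and 0.68% lower). Of the members 50 were positive with a median of 0.61, and 43.9% of all probes were positive with a median of -0.06. Of RefSeq probes 62.4% were positive, with a median of 0.12. These contrasts use the same control gilts as those of the hormone horns, so they are not independent. Among the 52 measured on all arrays, 40 were positive, with a median of 0.62. Without gilt 47 the median of the 64 was 0.25 with 46 positive.

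IL13RA1 stood at -3.49, -2.53, -2.66, -3.41 and -1.94 in the placebo horns of gilts 36, 38, 41, 44 and 47. Gilts 36 and 44 lay in the control range, and the difference was 0.94 ± 0.25 (1.92-fold). The call was lost without gilt 38, 41 or 47 and without control gilt 9, 14 or 28 (adjusted p 0.071 to 0.146). It was also lost with only the groups compared (adjusted p = 0.0972) and with RefSeq scaling (0.71, adjusted p = 0.0514). With slide as a term, a fit that rests on gilts 9 and 36, the difference was 0.21. Within the 3 scan days it was 0.20, 1.28 and 1.05 (adjusted p = 0.925, 0.0713 and 0.297), and normexp gave 0.53 (adjusted p = 0.108). IL15 at -2.36, -2.27, -2.48, -2.22 and -1.30 gave a difference of 0.65 ± 0.20 (adjusted p = 0.0642), and IL4R at -3.15, -2.44, -2.12, -3.20 and -1.10 gave 0.94 ± 0.30 (adjusted p = 0.0756). IL18R1 at -2.70, -2.30, -2.59, -3.18 and -3.80 overlapped control horns, with a difference of -0.62 ± 0.36 (adjusted p = 0.293).

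CCR1 stood at -1.90, 0.75, 1.57, -1.64 and 3.12, high in gilts 38, 41 and 47, with a difference of 2.27 ± 0.77 (adjusted p = 0.0887; 0.0422 without gilt 36). CXCL8 stood at -5.03, -3.23, -0.09, -5.89 and 2.33 (2.39 ± 1.16, adjusted p = 0.217; 1.32 without gilt 47). CXCL10 stood at 0.75, 2.03, 6.28, 2.14 and 5.40 (2.08 ± 1.04), CXCL11 at -6.54, -6.13, -3.85, -5.56 and -0.66 (2.48 ± 1.06, adjusted p = 0.166; 1.59 without gilt 47) and CCL28 at 3.95, -0.15, 3.07, 2.03 and -2.98 (-2.12 ± 1.26, adjusted p = 0.313; -1.19 without gilt 47). In CCL24, an eosinophil attractant, the placebo horns stood at -1.63, -0.65, -1.49, -2.72 and -3.28, and the difference of -0.83 ± 0.44 did not pass (-0.53 without gilt 47). No member had all 5 placebo horns above, or all below, the 8 control horns (3.02% and 2.89% of probes).

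The horns of the same gilt were compared to ask what the hormone changed within an animal. With limma, 0 of 64 members passed, against 0.00256% of all tested probes (1 probe), and 4 members had an unadjusted p under 0.05, against 9.92% of probes. The median difference between hormone and placebo horn was -0.08, with 24 positive and 40 negative, while 62.6% of all probes were positive with a median of 0.06. Among the 52 measured on all arrays, 18 were positive, with a median of -0.08. CXC chemokines had 1 positive difference of 8 and a median of -0.47; in the same direction, 7 of 8 were negative under quantile normalization, RefSeq scaling, normexp and the deposited table as well. CXCL10 had -1.17 ± 0.71, CXCL8 -0.87 ± 0.79 and CCR1 -0.85 ± 0.53 (adjusted p = 0.57, 0.691 and 0.579). CCL14, CCL21 and CCL24 had the largest positive ones among members measured on all arrays of a group, at 0.40 ± 0.20, 0.37 ± 0.42 and 0.37 ± 0.30.

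CCL21, which guides T cells and dendritic cells through CCR7, was the 1 member higher in the hormone than in the placebo horn of all 5 gilts (5.36% of probes), and 3 members, IL18R1 and CXCL8 among them, were lower in all 5 (2.42% of probes). In each of these pairs the hormone horn is the P horn. IL18R1 was lower by 1.03, 0.84, 1.03, 0.18 and 0.17 in gilts 36, 38, 41, 44 and 47 (difference -0.65 ± 0.24, adjusted p = 0.397). Between the P and L horns of control gilts IL18R1 differed by -0.18 ± 0.28. By gilt this was -1.38, 0.88, -0.53 and 0.30 in control gilts 9, 14, 28 and 46, so vehicle horns of a gilt also differed. CCL21 stood at -2.85 in the L horn and 0.05 in the P horn of control gilt 9, and control P horns lay 0.97 ± 0.48 above L horns (adjusted p = 1.00). In control gilts 9, 14, 28 and 46 this was 2.9, 0.63, 0.45 and -0.1, so the mean rests largely on gilt 9. As a mean, the CCL21 difference between marks was larger than that between hormone and placebo (0.37 ± 0.42). The difference between horns in treated gilts was also set against that in controls (P against L), and 0 members passed, with 1 at an unadjusted p under 0.05 (3.24% of probes). Among controls 0 passed and 0 had an unadjusted p under 0.05 (2.39% of probes), against 0.0% of all tested probes called in each.

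Gilt 47 held the highest treated horn in 35 members, gilt 36 in 10, gilt 41 in 8, gilt 40 in 6, gilt 44 in 3 and gilt 38 in 2, of 64. Gilt 40 entered this count with its hormone horn alone. The same count over all tested probes was not made, so it cannot be read as a trait of the members.

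**Figure D4:**
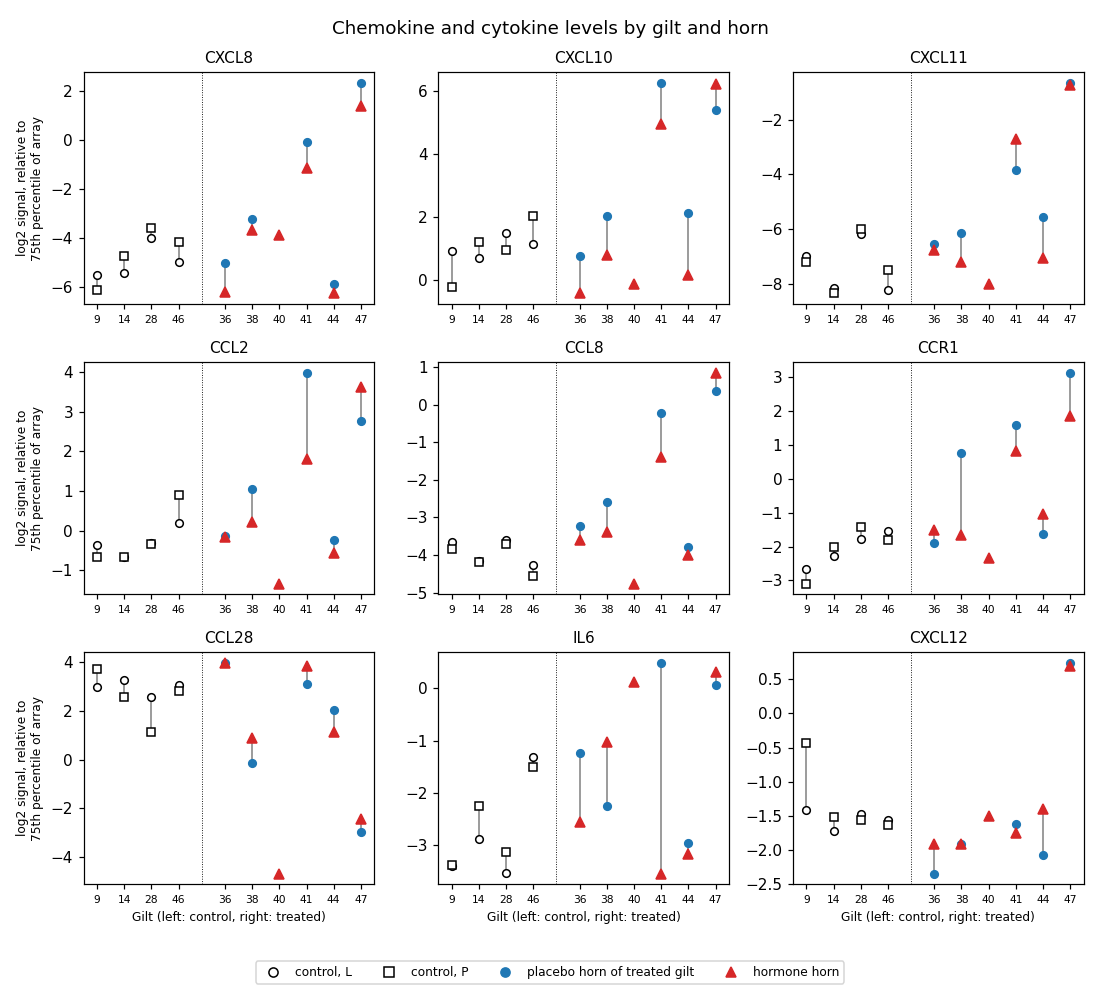
Levels (log2 signal relative to the 75th percentile of the array) of 9 chemokine and cytokine genes by gilt, with a line joining the horns of a gilt. CXCL8, CXCL10, CXCL11, CCL2 and CCL8 are high in both horns of gilts 41 and 47, CXCL12 in gilt 47, CCL28 is lowest in gilts 40 and 47, and IL6 differs between the horns of gilt 41 (0.48 and -3.54).

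Genes that act downstream or beside the members were read from lists. Of 15 measured JAK, STAT and SOCS genes (25 listed), 5 rose in hormone horns and 0 fell. Among those that rose were the transcription factors STAT5A by 1.22 ± 0.28 (adjusted p = 0.0116), STAT4 by 1.10 (adjusted p = 0.0243), STAT5B by 0.76 (adjusted p = 0.028) and STAT6 by 0.36 (adjusted p = 0.0352). SOCS3, a feedback inhibitor induced by cytokines, differed by 0.01. STAT5A (1.03, adjusted p = 0.0493) and STAT6 (0.46, adjusted p = 0.0312) also rose in placebo horns. Of 16 TNF family genes 1 rose, the death receptor FAS (0.61, adjusted p = 0.0429; placebo 0.80, adjusted p = 0.0326). Of 11 further chemokine system genes 1 rose, PPBP, a platelet CXC chemokine measured on 12 arrays (1.91 ± 0.59, adjusted p = 0.0427). Of 13 other cytokine genes 3 rose, the stem cell factor receptor KIT (1.03, adjusted p = 0.011; placebo 0.97, adjusted p = 0.0351) and the interferon receptor chains IFNGR2 (1.06, adjusted p = 0.0261) and IFNAR1 (0.92, adjusted p = 0.0303). Between the horns of treated gilts 0 of these passed. In all of these lists 0 genes fell, while 14.9% of RefSeq probes rose and 2.13% fell.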

How the data were processed

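RNA from the endometrium of 10 gilts was hybridised to 19 Agilent arrays with 1 colour. The scanner files the authors deposited give linear intensity per spot, made, per the file headers, by Feature Extraction 10.7.3.1 (the submitters' processing notes name 9.1), background-subtracted within each array. The 75th percentile per array lay at 597 to 983 and 0 spots were saturated. The authors' deposited value table is on a log2 scale (r from 0.996 to 0.999 with the scanner values, medians 7.72 to 7.83). No source used here gives its scaling or centring, so it was an alternative only. Control spots and outlier flags were left out, and spots of a probe were averaged.

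Probes were named through RefSeq accessions and the RefSeq table for Sscrofa11.1: of 43603 probes, 6876 matched 1 gene. The files' genome build was not used. The 39091 probes that were well above background on 4 arrays or more were fitted with limma 3.58.1 (statmod 1.5.0, R 4.3.3) in 4 groups, with the gilt as random block (correlation 0.536) and eBayes with trend. Controls were the mean of L and P. Two-sided p-values were adjusted by Benjamini-Hochberg over all probes and passed under 0.05. The arrays of a gilt share an animal: their deviations correlated at 0.336 to 0.795 in treated and 0.403 to 0.628 in control gilts, and at most at 0.143 with another gilt. Both horns of a gilt lay on 1 slide, so gilt and slide cannot be told apart. Gilts were the separate animals. A fit that counts arrays can give too small an adjusted p for genes that vary much between gilts. The fitted differences borrow across horns of a gilt and can depart from a difference of means. The number of arrays limits the precision.

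The members and lists were chosen with earlier results of these data known. Named members were those that passed, the 3 largest differences in each direction per comparison among members well above background on all arrays of a group compared, and a list of genes of interest (IL6, TNF, LIF and others). CCL3L1, CXCL9, CCL8, CXCL2 and the members given by value alone were added after their values were seen. Values of some genes are not reported here. The fit was tested on simulated data.

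Alternatives were background correction by normexp (offset 50), quantile normalization, scaling on RefSeq probes, the deposited table, other filters, no gilt block, averaged control horns, only the groups compared, scan day, slide, the mean over probes, each gilt left out, and a threshold of 0.10. Normexp was run on median signals, and the fits within a scan day used the correlation from all arrays, both chosen after seeing the files.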

Additional observations from a re-analysis of the deposited data

Results flagged for a closer look

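In 75 groups of 4 to 6 samples (25 genes in control gilts, placebo horns and hormone horns), 14 had a sample far from the others by Dixon's criterion. Chance flags a single group about 1 time in 20. The 75 groups share the same gilts, and many of the genes were picked for large differences, so the count of 14 cannot be set against that rate. Of the 14, 11 were horns of gilt 47. There IL15 stood at -1.45 in the hormone horn and -1.30 in the placebo horn, CXCR6 at 1.55 and 1.30, IL10 at 0.73 and 0.95, CCL5 at 4.74 and 4.51, CXCL12 at 0.69 and 0.74, and CXCR4 at -0.69 in the hormone horn. All of these lay above the rest of their group. TNF stood at 1.86 in the hormone horn of gilt 40, above the others. In control gilt 9 (mean of its horns), IL13RA2 stood at -1.61, below the others, and CXCL12 at -0.92, above them.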

How the results depend on the processing

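Against 3 members called in hormone horns compared with control gilts, there were 1 with normexp, 1 with only the groups compared, 0 within scan day 1, 0 within scan day 3, 1 without gilt 47 and 1 horn of gilt 36 (the hormone horn), and 9 with slide as a term, a fit that rests on gilts 9 and 36, the only ones sharing a slide. Leaving out each gilt gave 0 (without control gilt 28) to 4. Against 1 called in placebo horns, there were 0 with normexp, 2 with RefSeq scaling (IL2 and IL29, both lower), 0 with averaged control horns, 0 with only the groups compared, 0 within scan day 1, 2 within scan day 2, 0 within scan day 3, 8 with the slide, 0 without gilt 47 and that horn, and 4 at a threshold of 0.10; leaving out each gilt gave 0 to 3. Without the replicate block, 3 and 1 members were called in these comparisons, and 2 and 0 with averaged control horns, while all-probe calls were 6972 and 3570 without the block against 4553 and 1728 with it. With the gilt as a fixed replicate block 0 members were called between horns. Across all probes, 57.7% of those called in hormone horns were higher; scaling on RefSeq probes made this 15.7% and moved the median difference of all probes from 0.01 to -0.25, and members' median from 0.58 to 0.32.

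Directions that turned: with the slide term, in hormone horns, CCL28 0.74 (0.45 in placebo horns), IL13RA2 0.88, CXCL8 -0.19, TNF -0.08, LIF -0.04, IL6ST -0.87, IL6R -0.03 and CXCL12 -1.12; within scan day 1, IL13RA2 0.13, CXCL8 -0.40, IL6ST -0.70, CXCL12 -0.73 and, between horns, CCR1 0.50; within scan day 2, LIF -0.04 and CXCL12 -0.07; within scan day 3, TNF -0.09, LIF -0.13 and, between horns, CCL24 -0.25 and CCL14 -0.11; with RefSeq scaling, TNF -0.18, LIF -0.24 and CXCL12 -0.14; with quantile normalization, LIF -0.01; without gilt 47 and that horn, CXCL12 -0.28. Leaving out 1 gilt turned TNF (-0.05 without gilt 40), CXCL12 (range -0.29 to 0.28, lowest without gilt 47) and LIF (range -0.09 to 0.15, with -0.09 without gilt 9, -0.01 without gilt 14, -0.04 without gilt 38, -0.04 without gilt 44, -0.01 without gilt 40). The cause was not tested. IL13RA1 in hormone horns passed in 12 of 16 other alternatives, IL18R1 in 10 and IL15 in 4; IL13RA1 in placebo horns passed in 7.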
